A study of Mus musculus with 6 samples.

Results

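Snora74a, Snora26 and Snora24 are H/ACA small nucleolar RNAs (snoRNAs) that each lie inside a different long non-coding host gene. They were taken as the measured probes whose RefSeq transcript carries one of these 3 symbols, in hosts that hold no other measured snoRNA with a symbol, and make up 3 of the 67 snoRNAs with values on a panel of 72. Levels were read by NanoString nCounter, an assay that tallies barcoded probes bound to unamplified RNA, in total RNA of C2C12 cells, an established mouse myoblast line. The groups were 3 samples of myotubes, after 7 days of differentiation, and 3 samples of undifferentiated control myoblasts, with no other treatment named. Every sample comes from the same line. The panel read snoRNAs only, so no muscle, proliferation or fibroblast marker was measured and the labelled state could not be checked. No label says that samples of a group were separate cultures. The p-values therefore set a difference against the spread between these samples, which may be technical. In the test of single snoRNAs that spread is partly pooled over the panel.

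H/ACA snoRNAs fold into hairpins joined by a hinge and ending in an ACA tail, and with dyskerin they convert chosen uridines of ribosomal RNA to pseudouridine. In mammals most of them are cut out of introns, so that one transcription unit yields both a spliced host RNA and a snoRNA. In hosts such as Snhg4 and Snhg8 the spliced RNA codes for no known protein. Snora74a (also U19) and Snora26 belong to families whose human members guide modification of 28S rRNA, the RNA of the large subunit. Snora24 (also ACA24) belongs to a family that guides 18S rRNA of the small subunit in human cells, and it acts downstream of oncogenic Ras in tumour suppression in mouse liver.

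The probes were listed under the transcripts NR_002905.3 for Snora74a, NR_031758.1 for Snora26 and NR_028573.1 for Snora24. Their annotated lengths were 198, 121 and 130 bases in that order. In the annotation the span of Snhg4 holds Snora74a, that of Snhg8 holds Snora24, and Snora26 lies within a gene annotated as a long non-coding RNA. For Snora24 the start of its host is shown as an example, since the snoRNA is carried on the transcript that begins there. The starts of the hosts of Snora74a and Snora26 are not shown, so nothing here compares the hosts. The window is chr3:123508287-123508586 of GRCm38.p6, minus strand, from RefSeq, 250 bases before to 50 bases after the annotated start of Snhg8, written 5′ to 3′ with a TATAAA motif in capitals.
Snhg8: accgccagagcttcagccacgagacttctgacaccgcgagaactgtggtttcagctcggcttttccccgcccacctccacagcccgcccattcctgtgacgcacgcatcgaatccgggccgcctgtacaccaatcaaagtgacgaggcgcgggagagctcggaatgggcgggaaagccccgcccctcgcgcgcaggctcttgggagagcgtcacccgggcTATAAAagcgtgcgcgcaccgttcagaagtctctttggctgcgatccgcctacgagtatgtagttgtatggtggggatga

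The first base of this TATAAA, the core letters of the TATA box, lies 30 bases before the annotated start. Of 32851 such windows in the mouse annotation, 8.32% hold the letters TATAAA on the printed strand and 13.6% on either strand, and 2.63% hold them on the printed strand within the last 50 bases before the start. The match describes these letters and is no evidence of a bound factor. Promoter activity was not measured here.

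Of the 3 guides, 1 rose on differentiation, 1 fell and 1 did not pass the test. Snora74a was 1.99-fold higher in myotubes, Snora24 was 1.37-fold lower, and Snora26 had a fitted fold of 1.07. The deposited values are probe counts multiplied by 1 factor per sample, called normalized counts here, and their log2 values after adding 1 were fitted with limma. Over the whole panel 55.2% of snoRNAs passed at an adjusted p under 0.05, with 35.8% higher and 19.4% lower in myotubes, so that a pass of 2 of 3 is close to the panel's own rate. No overlap between the groups was found for 2 of the 3, against 65.7% of the panel. The share of the panel's calls that were higher was 64.9% on the deposited scale, 54.1% after quantile normalization and 52.4% with equal panel totals.

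**Figure D1:**
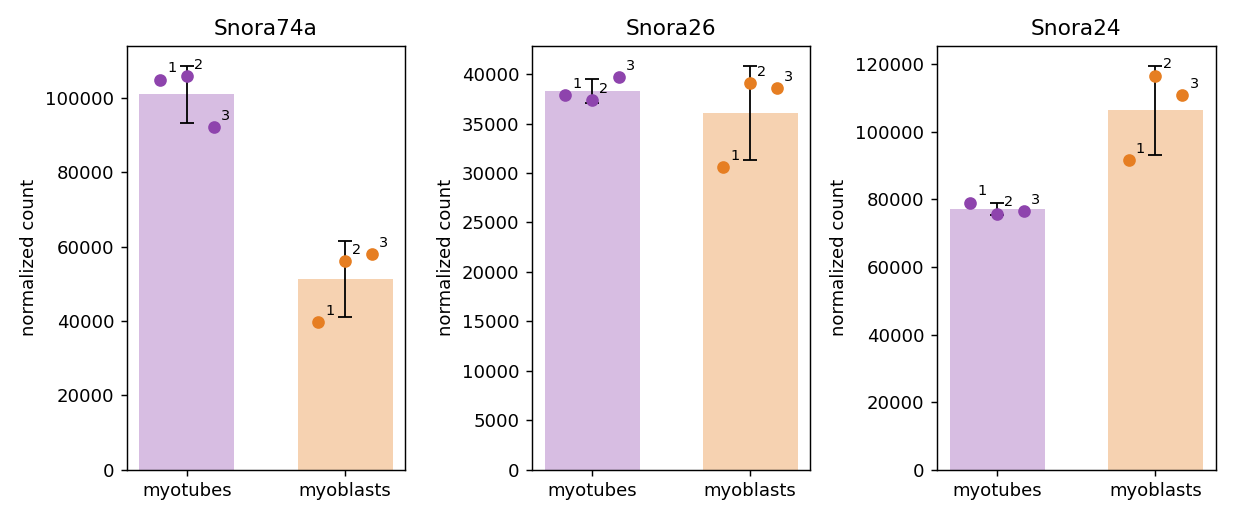
Normalized count (linear axis from 0) of Snora74a, Snora26 and Snora24 in 3 myotube and 3 myoblast samples. Bars are means, error bars are SD (n = 3), and points carry the sample number; the groups are apart for Snora74a and Snora24 and overlap for Snora26, and myoblast sample 1 is the lowest myoblast sample in each panel.

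Snora74a, a guide of 28S rRNA in Snhg4, stood at 104918, 105800 and 92214 normalized counts in myotube samples 1 to 3, against 39598, 56128 and 58042 in myoblast samples 1 to 3. Every myotube sample was above every myoblast sample, and the lowest of all was myoblast sample 1. The means were 100977 ± 7602 in myotubes and 51256 ± 10141 in myoblasts (SD, n = 3 each). This rise of 1.00 ± 0.17 (SE) on the log2 scale passed the test (limma, Benjamini-Hochberg adjusted p = 0.002), with a 95% interval of 1.51-fold to 2.64-fold. Only 7 of the 67 snoRNAs had a higher log2 change. Quantile normalization, which gives every sample the same set of values, left a log2 change of 0.50 (adjusted p = 0.01).

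Snora26, assigned to the same rRNA as Snora74a, was measured at 37895, 37373 and 39701 normalized counts in myotube samples 1 to 3, against 30623, 39058 and 38546 in myoblast samples 1 to 3. The groups overlapped, since 2 of the myoblast samples lay within the range of the myotube samples and myoblast sample 1 lay below it. The means were 38323 ± 1222 in myotubes and 36075 ± 4729 in myoblasts (SD, n = 3 each). The log2 change was 0.10 ± 0.13 (SE; limma, adjusted p = 0.56), and its 95% interval ran from 0.86-fold to 1.33-fold. A 2-fold change in either direction lies outside that interval. The sign depended on the scale and on 1 sample, as the log2 change was -0.08 with equal panel totals and -0.02 without myoblast sample 1.

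Snora24, the guide of 18S rRNA in Snhg8, had 79084, 75826 and 76651 normalized counts in myotube samples 1 to 3, against 91626, 116674 and 110803 in myoblast samples 1 to 3. All myotube samples were below all myoblast samples, and the myotube values lay close together. The means were 77187 ± 1694 in myotubes and 106368 ± 13100 in myoblasts (SD, n = 3 each). Its level fell by 0.46 ± 0.13 (SE) on the log2 scale (limma, adjusted p = 0.019), with a 95% interval of 0.59-fold to 0.90-fold. That call was lost without myoblast sample 2 or 3 (adjusted p of 0.07 and 0.066) or without myotube sample 1 or 2 (0.063 and 0.081), and also on the counts before the factor (log2 change -0.40, adjusted p = 0.17). Without myoblast sample 1 the log2 change was -0.56 (adjusted p = 0.0017), and it was -0.81 after quantile normalization and -0.69 with equal panel totals and myoblast sample 1 left out.

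**Figure D2:**
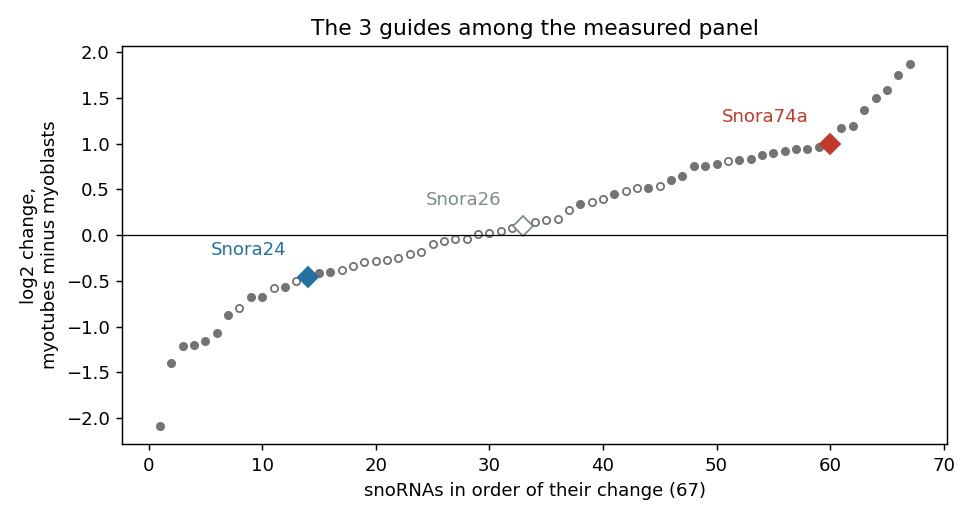
Log2 change (myotubes minus myoblasts) of the 67 measured snoRNAs, ordered from the lowest to the highest. Filled symbols passed the test (limma, adjusted p under 0.05) and open symbols did not; diamonds mark Snora24 on the falling side, Snora26 near 0 and Snora74a among the larger rises.

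Myoblast sample 1 was the lowest of its group for all 3 guides. Set against the mean of the other 2 myoblast samples, its log2 level differed by -0.53 for Snora74a, -0.34 for Snora26 and -0.31 for Snora24. The panel's median difference in that sample was -0.12, and 53.7% of the panel had its lowest myoblast value there. The same sample carried the largest factor, 1.31 against 1.01 and 1.08 in myoblast samples 2 and 3 and 1.07 to 1.11 in the myotube samples. Its part in the results is given by the values without it, which were 0.82 for Snora74a (adjusted p = 0.0017), -0.02 for Snora26 and -0.56 for Snora24 on the log2 scale.

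Spread within a state was unequal. The coefficient of variation was 7.53% for Snora74a, 3.19% for Snora26 and 2.19% for Snora24 in myotubes, against a panel median of 10.04%. In myoblasts it was 19.8% for Snora74a, 13.1% for Snora26 and 12.3% for Snora24, against a panel median of 13.5%. The myoblast values rest on myoblast sample 1: between samples 2 and 3 alone the coefficient was 2.37% for Snora74a, 0.93% for Snora26 and 3.65% for Snora24. These do not rank the states, since the myotube coefficients hold all 3 samples. The log2 differences of myoblast sample 2 from 3 were -0.048, 0.019 and 0.075 in the same order. Those of myotube sample 1 from 2 were -0.012, 0.020 and 0.061. Myotube samples 1 and 2 were close across the panel, with an SD of 0.08 for the log2 difference over snoRNAs, while myotube sample 3 differed from them with an SD of 0.35 and 0.37. For Snora74a myotube sample 3 lay 0.19 and 0.20 below samples 1 and 2 on the log2 scale, and it was the highest of the 3 for Snora26. The counts implied by the factors ran from 23432 to 115639 over the 3 guides, and the largest counting SD of a single log2 value was 0.009. Counting error was therefore small beside the 0.19 and 0.20 of Snora74a, but not beside the smallest differences given above.

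As a share of the summed normalized count of the panel, Snora74a took 5.99%, 6.04% and 5.45% in myotube samples 1 to 3, against 2.76%, 3.54% and 3.65% in myoblast samples 1 to 3. Snora24 took 4.51%, 4.33% and 4.53% in myotube samples 1 to 3, against 6.39%, 7.36% and 6.97% in myoblast samples 1 to 3. The groups were apart for both. Snora26 took 2.21% ± 0.11 in myotubes and 2.34% ± 0.18 in myoblasts (SD, n = 3 each), with overlap. Together the 3 guides made up 12.5% ± 0.17 of the panel in myotubes and 12.6% ± 1.13 in myoblasts (SD, n = 3 each), and this combined share overlapped between the states. With every sample set to the same panel total, the log2 changes were 0.82 for Snora74a (limma, adjusted p = 0.0023), -0.08 for Snora26 (adjusted p = 0.48) and -0.63 for Snora24 (adjusted p = 0.0019). Levels of different probes also depend on how well each probe hybridises, so the shares describe each probe's own course and do not rank the RNAs.

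The ratio of 2 guides within a sample does not depend on the factor of that sample. Snora74a stood to Snora24 as 1.33, 1.40 and 1.20 in myotube samples 1 to 3, against 0.432, 0.481 and 0.524 in myoblast samples 1 to 3. The groups were apart, and only the change of such a ratio is read here, since its level depends on both probes. The mean log2 ratio was 0.39 ± 0.11 in myotubes and -1.07 ± 0.14 in myoblasts (SD, n = 3 each), a change of 1.45 ± 0.10 (SE), or 2.73-fold. For the pair Snora74a and Snora26 the log2 ratio was 1.40 ± 0.16 in myotubes and 0.49 ± 0.11 in myoblasts (SD, n = 3 each), a change of 0.90 ± 0.11 (SE), or 1.87-fold.

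The ratio of Snora26 to Snora24 had the smallest spread. It was 0.479, 0.493 and 0.518 in myotube samples 1 to 3, against 0.334, 0.335 and 0.348 in myoblast samples 1 to 3. Myoblast sample 1, the lowest sample of its group in the level of both RNAs, did not stand apart in their ratio. Its mean log2 value was -1.01 ± 0.06 in myotubes and -1.56 ± 0.03 in myoblasts (SD, n = 3 each), a change of 0.55 ± 0.04 (SE), or 1.46-fold. No pair overlapped between the states. Each of the 3 pairs gave an exact two-sided permutation p of 0.1, and 0.1 after Benjamini-Hochberg adjustment over the 3 pairs, which is the smallest p that 3 samples against 3 allow. Leaving out any 1 sample kept the changes between 1.38 and 1.52, between 0.84 and 0.99, and between 0.52 and 0.58 in the order of the pairs above.

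**Figure D3:**
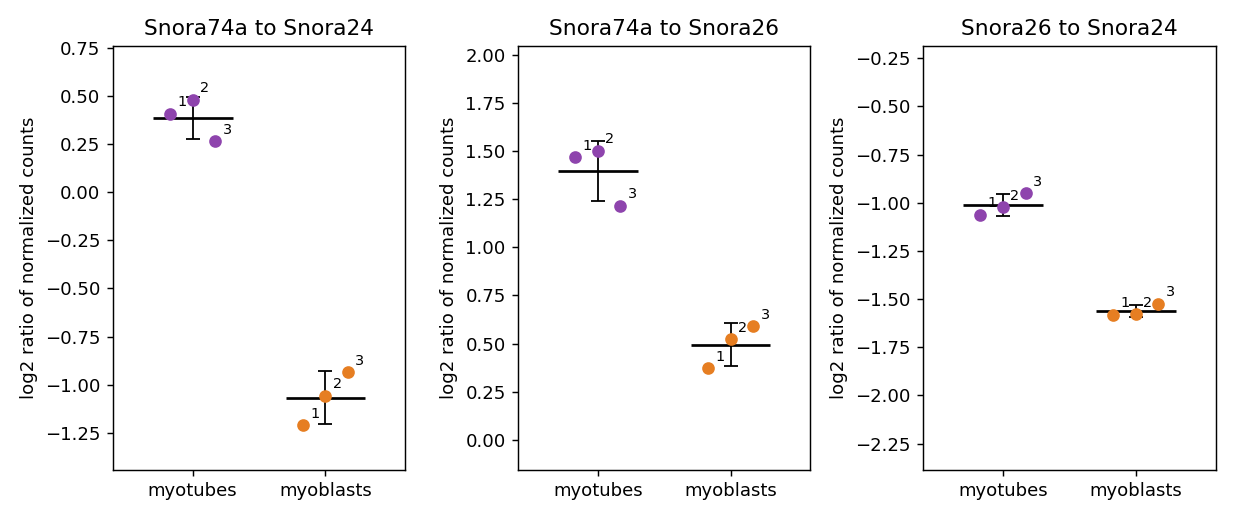
Log2 ratio of normalized counts for the pairs Snora74a to Snora24, Snora74a to Snora26 and Snora26 to Snora24, in 3 myotube and 3 myoblast samples. Lines are means with SD (n = 3) and points carry the sample number; each axis spans the same log2 range, and the groups are apart in all 3 panels by 1.45, 0.90 and 0.55.

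Snora74a, Snora26 and Snora24 were set beside the other snoRNAs in non-coding hosts. Of 9 others listed, 6 were measured under a symbol, and of these 1 rose, 2 fell and 3 did not pass, near the panel's 55.2% called (35.8% higher and 19.4% lower). Their median log2 change was 0.01, with a range from -0.68 to 0.45. Over the 67 snoRNAs the median was 0.14 and the range ran from -2.09 to 1.87. Snora17 and Snora43, both 28S rRNA guides in Snhg7, had log2 changes of 0.45 ± 0.13 and -0.68 ± 0.17 (SE; adjusted p of 0.024 and 0.012). Snora73a (U17), which acts in cleavage of the ribosomal RNA precursor and lies in Snhg3, had -0.42 ± 0.13 (SE; adjusted p = 0.024). Snora16a and Snora44 in Snhg12 had 0.18 ± 0.14 and -0.07 ± 0.11, and Snora78, whose position lies in both Snhg9 and a protein-coding gene, had 0.08 ± 0.14 (SE; adjusted p of 0.29, 0.60 and 0.60). The log2 change of Snora74a was above those of all 6, and that of Snora24 lay between those of Snora73a and Snora43. The differences between these snoRNAs were not tested.

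**Figure D4:**
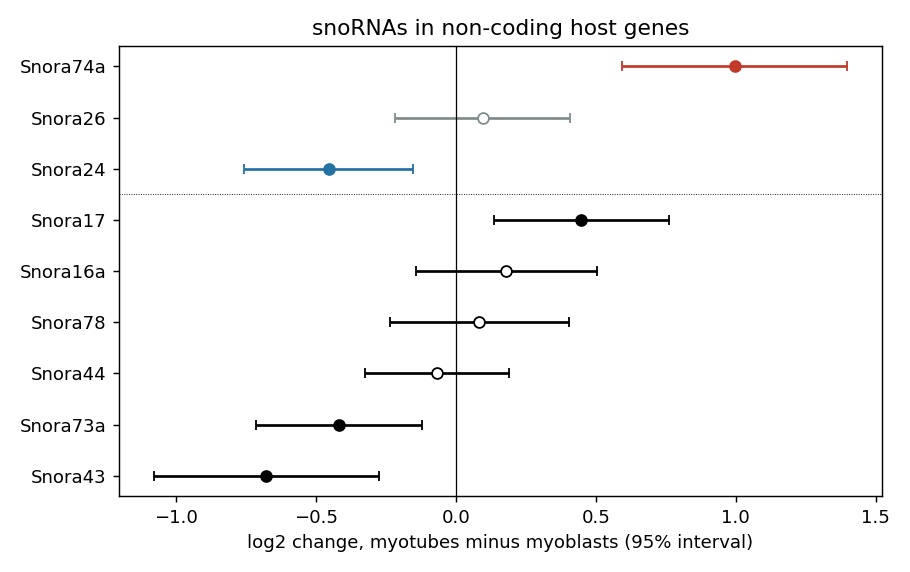
Log2 change (myotubes minus myoblasts) with its 95% interval for Snora74a, Snora26 and Snora24 above the dotted line and 6 other snoRNAs in non-coding hosts below it. Filled points passed the test (limma, adjusted p under 0.05); rises, falls and changes that did not pass occur on both sides of the line.

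Among guides of the same rRNA the courses were mixed as well. The lists rest on background knowledge of human relatives, and the targets were not checked here. They were written with earlier results of these data known, so their counts are no independent comparison with the panel. Of 17 measured 28S rRNA guides, Snora74a and Snora26 among them, 5 rose, 2 fell and 10 did not pass, with a median log2 change of 0.18, while 55.2% of the panel passed. Snora30 was the only one of them above Snora74a, with a log2 change of 1.75. Of 7 measured 18S rRNA guides 5 rose, 1 fell and 1 did not pass, with a median of 0.76, beside 35.8% higher and 19.4% lower over the panel. The lists were not tested against the panel. Snora24 was the one that fell, while Snora36b and Snora28 had log2 changes of 1.87 and 1.59.

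The profiles of the 3 guides over the 6 samples were compared with those of the 66 other measured snoRNAs. Each profile was centred on its own mean, and likeness was the root mean square difference in log2 units. For each guide the 5 nearest probes held 3 with a symbol and 2 without. Nearest to Snora74a among those with a symbol were Snora70, Snora3 and Snora47 at 0.09, 0.10 and 0.13, against a median of 0.48 over all 66. Snora26 was nearest to Snora78, Snora16a and Snora44 at 0.04, 0.05 and 0.11 (median 0.38). Each of these lies in a long non-coding host, and Snora78 in a protein-coding gene as well. A long non-coding host was annotated for 9 of the 33 measured snoRNAs with a symbol, the 3 guides included, but not for Snora70, Snora3 or Snora47. Snora17 and Snora43, also in such a host, were not among the 5 nearest of any guide. Probes without a symbol have no host assigned here, and whether host type goes with profile was not tested. Snora78, Snora16a and Snora44 did not pass the test, nor did Snora26. The nearest to Snora24 were Snora52, Snora62 and Snora73a at 0.12, 0.13 and 0.13 (median 0.46), of which only Snora73a lies in an annotated long non-coding host. Snora52, in a ribosomal protein gene, and Snora73a fell, and Snora62, tied to precursor cleavage, had a log2 change of -0.25 (limma, adjusted p = 0.19). Among the 3 guides themselves the distances were 0.73 between Snora74a and Snora24, 0.46 between Snora74a and Snora26, and 0.28 between Snora26 and Snora24. All profiles come from the same 6 samples and share their scaling, so likeness is a description only.

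Of the 19 other settings tried, 5 cannot move the fitted change by construction. Under the other 14 the log2 change of Snora74a was above 0 and that of Snora24 below 0. For these guides the groups did not overlap. Leaving out samples, averaging myotube samples or changing the constant added to the values therefore could not turn the sign. Only the settings that changed the scaling of the samples could have turned it. Snora26, whose groups overlapped, was above 0 in 10 of the 14 and below 0 in 4. The call was lost in 1 of the 19 for Snora74a and in 8 for Snora24, and Snora26 passed in none.

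**Figure D5:**
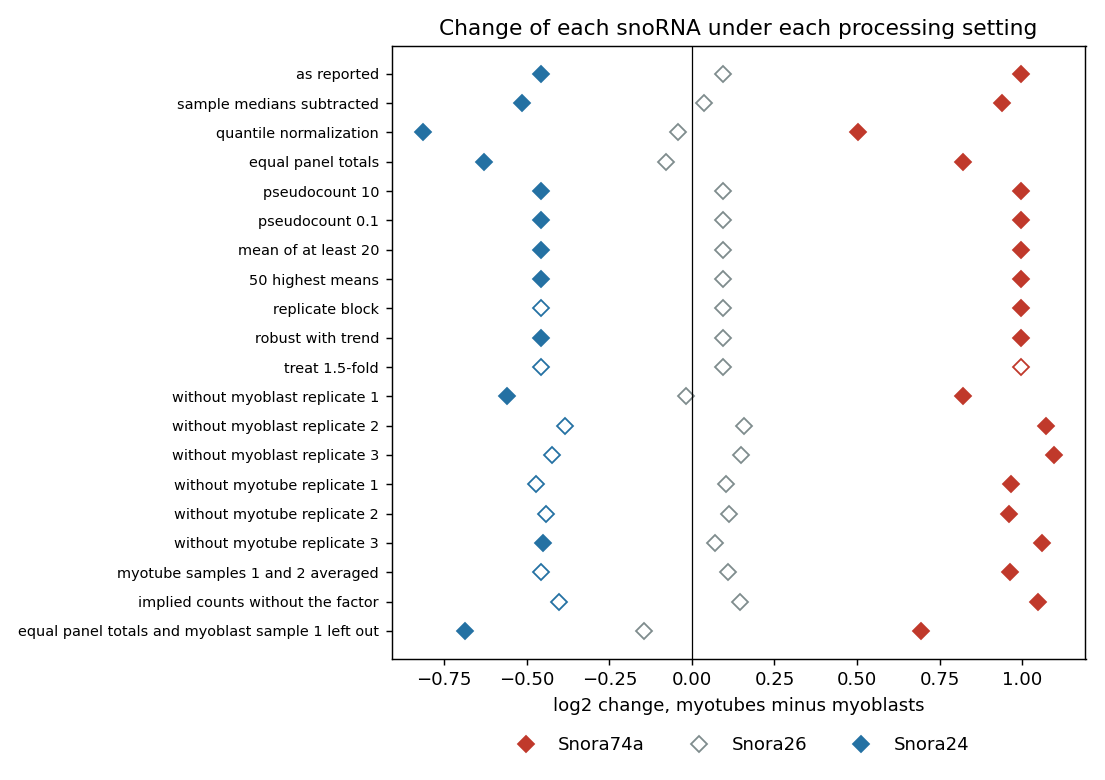
Log2 change (myotubes minus myoblasts) of Snora74a, Snora26 and Snora24 as reported and under each processing setting. Filled diamonds passed the test (limma, adjusted p under 0.05); Snora74a lies between 0.50 and 1.096, Snora24 between -0.81 and -0.38, and Snora26 on both sides of 0.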

How the data were processed

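The authors deposited 1 table of normalized signal values, which were whole multiples of 1 step per sample for all 67 measured probes (tolerance 0.05 of a count). The step, from 1.01 to 1.31, was read as a scaling factor. Its origin, not given in the sources used here, was not inferred. RNA was extracted with Trizol, DNase treated and column purified, per the labels' protocols. Implied totals ran from 1097844 to 1627062 counts. Symbols came from RefSeq accessions matched without versions to GRCm38.p6, for 34 of 72 probes. The host of Snora26 is not reported here by name.

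Values were analysed as log2(value + 1) with limma 3.58.1 in R 4.3.3 (lmFit, eBayes), two-sided, with state as the only term and Benjamini-Hochberg adjustment over 67 snoRNAs. Ratios were tested by exact permutation in Python 3.11.15 with scipy 1.17.1. Named were the 3 guides, the 5 profiles nearest to each where they have a symbol, the other listed snoRNAs in non-coding hosts, and up to 4 examples of each guide list. The members and lists were chosen with earlier results of these data known. The fit was tested on simulated data. Count models were not used, since the values are scaled. Probes may bind near-identical copies of a snoRNA.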

Additional observations from a re-analysis of the deposited data

How the results depend on the processing

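Of the settings tried, 18 of 19 left the rise of Snora74a on its side of the threshold. The exception was a test against a 1.5-fold change (log2 change 1.00, adjusted p = 0.096), which also called 9 snoRNAs of the panel in place of 37 and ended the call of Snora24 (-0.46, adjusted p = 1.0). That test asks for a larger change by construction. Among the 18, the changed constants and the filter on a mean of at least 20 hardly challenge the call. Each left the log2 change of Snora74a at 1.00 (limma, adjusted p = 0.002). Calls over the panel ranged from 27 to 42 under the other settings. For Snora24 the call also ended with the replicate block (-0.46, adjusted p = 0.077), with the mean of myotube samples 1 and 2 as 1 sample (-0.46, adjusted p = 0.071) and on implied counts without the factor (-0.40, adjusted p = 0.17). Leaving out 1 sample gave -0.56 to -0.38. The block left the log2 change of Snora24 as it was and raised its SE from 0.13 to 0.23. On implied counts the SE was 0.25. Both of these larger SEs, and that of 0.20 with sample medians subtracted, were the same for all 3 guides. They do not describe the spread of Snora24 alone, and p-values under these settings set each change against a shared spread. For Snora74a the block gave a smaller p (limma, adjusted p = 0.0001) although its SE rose from 0.17 to 0.23. The causes of the larger SEs and of the other lost calls were not tested. Snora26, which never passed, turned below 0 after quantile normalization (-0.042), with equal panel totals (-0.080) and with these and myoblast sample 1 left out (-0.145), and ranged from -0.018 to 0.157 without 1 sample. Ratio changes after quantile normalization were 1.32 for Snora74a to Snora24, 0.55 for Snora74a to Snora26 and 0.77 for Snora26 to Snora24. No label says that samples sharing a replicate number belong together, so the numbers were not taken as pairs. Their deviations from the group means had r over snoRNAs of 0.44, -0.74 and -0.02. Deviations of 3 samples from their own mean are tied to each other, so these r cannot decide whether cultures or days were shared. The block changed no other call of the 3 guides. Equal panel totals moved the panel's median log2 change by -0.18 and quantile normalization by -0.11. Implied counts, and equal totals with myoblast sample 1 left out, were added after seeing the data.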
